A study of Homo sapiens with 16 samples.

Results

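The histone genes of human U937 cells, a histiocytic lymphoma line, were followed on 16 two-colour Agilent arrays after exposure to UNBS1450, a cardiac glycoside that blocks the sodium and potassium pump of the plasma membrane. Members were taken by symbol: 68 genes whose symbols start with H1-, H2AC, H2BC, H3C or H4C, called replication-dependent here, and the 8 variants H2AX, H2AZ1, H2AZ2, H2AJ, H3-3A, H3-3B, MACROH2A1 and MACROH2A2. These 76 genes are among 17329 genes with a single symbol and a value on every array, and they were read by 103 spots. H2BC1 and H4C16 also fall under the rule but had no measured spot. The time points 0, 3, 6 and 9 h had 4 arrays each, called biological replicates in the labels. Each array set cells given 20 nM UNBS1450 against control cells harvested at the same hour. For 0 h the study's methods describe untreated cells in both dyes, so that these arrays serve as the control, whereas the labels name the agent there too. The dyes were swapped, with the treated sample labelled by Cy5 on replicates 1 and 2 and by Cy3 on the other two. All values below are log2 ratios of treated over control, positive where the mRNA was higher in treated cells, and a value of 1 is a doubling. The arrays give ratios of a single cell line and no levels, so neither cell identity nor the order of expression between genes could be checked.

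Histones are the proteins around which DNA is wound. H2A, H2B, H3 and H4 form the core of the nucleosome and the linker histone H1 binds where DNA enters and leaves it. Replication-dependent histone genes lie in clusters in many near-identical copies and are transcribed in S phase, when new DNA must be packaged, and their mRNAs end in a conserved stem-loop in place of a poly(A) tail. Variant genes are single genes, are used through the cell cycle and give polyadenylated mRNAs, and H2AX is known to make both kinds of 3′ end. The labelling kit named in the labels primes RNA from the poly(A) tail, so a replication-dependent mRNA is seen only as far as it carries adenosines at its 3′ end. The linker genes H1-6, H1-7, H1-8 and H1-10 and the pseudogene H1-9P enter the first class by their prefix alone, since they are germ-line or replication-independent genes, and H2BC19P is a pseudogene.

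The promoters of both classes are set out first, since the members share letters there that the selection by name did not use. RefSeq windows of 300 bases, from 250 before to 50 after the start of the transcript (build GRCh38.p14), were matched by symbol to 69 of the 76 genes. Each window was searched on both strands for 3 motifs, none of which contains another. The first, CCAAT, is the box recognised by the factor NF-Y. The second was a form of the TATA box, TATAAA. The third was the octamer of histone H2B promoters, a known site for the factor Oct-1, with the letters ATTTGCAT. The 150 bases before the start are printed for the gene of each family with the highest ratio on the replicate 4 array at 9 h, for the highest H2A and H2B genes that hold an octamer, for the H4 gene with the lowest ratio there, and for 2 variants. Letters run 5′ to 3′ in the sense of the gene, and capitals mark the motifs on either strand.
H2AC25: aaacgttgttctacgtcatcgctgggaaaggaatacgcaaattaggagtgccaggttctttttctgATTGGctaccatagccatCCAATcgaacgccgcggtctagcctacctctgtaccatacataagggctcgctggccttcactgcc
H2AC4: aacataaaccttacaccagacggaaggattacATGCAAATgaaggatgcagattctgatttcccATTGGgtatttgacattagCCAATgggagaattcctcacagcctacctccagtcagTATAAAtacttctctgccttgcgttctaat
H2BC5: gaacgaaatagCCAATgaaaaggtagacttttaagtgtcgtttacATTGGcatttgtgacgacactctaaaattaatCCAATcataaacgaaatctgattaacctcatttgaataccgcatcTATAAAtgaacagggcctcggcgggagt
H2BC7: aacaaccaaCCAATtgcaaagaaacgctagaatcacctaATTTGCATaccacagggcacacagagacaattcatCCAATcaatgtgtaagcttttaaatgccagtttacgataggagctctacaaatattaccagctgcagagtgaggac
H3C10: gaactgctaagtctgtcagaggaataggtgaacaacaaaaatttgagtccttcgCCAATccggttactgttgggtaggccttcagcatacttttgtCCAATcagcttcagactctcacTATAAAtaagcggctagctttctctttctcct
H4C5: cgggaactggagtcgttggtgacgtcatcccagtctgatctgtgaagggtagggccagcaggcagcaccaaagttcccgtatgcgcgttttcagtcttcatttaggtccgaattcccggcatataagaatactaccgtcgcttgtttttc
H4C2: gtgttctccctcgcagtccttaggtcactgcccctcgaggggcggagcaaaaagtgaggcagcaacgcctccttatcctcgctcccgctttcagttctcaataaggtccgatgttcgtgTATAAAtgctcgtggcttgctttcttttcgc
H1-3: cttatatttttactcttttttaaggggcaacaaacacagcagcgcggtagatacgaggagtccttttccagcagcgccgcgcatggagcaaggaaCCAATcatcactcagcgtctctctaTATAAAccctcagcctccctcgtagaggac
H2AZ1: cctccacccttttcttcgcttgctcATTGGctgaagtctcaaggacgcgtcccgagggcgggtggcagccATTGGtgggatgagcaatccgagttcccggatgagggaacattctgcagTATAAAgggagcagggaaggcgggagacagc
H3-3A: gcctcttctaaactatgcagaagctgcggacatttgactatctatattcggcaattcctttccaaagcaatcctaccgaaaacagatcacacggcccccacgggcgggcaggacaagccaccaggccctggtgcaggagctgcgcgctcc

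On build GRCh38.p14 these stretches lie at chr1:228457874-228458023 on the minus strand (H2AC25), chr6:26033619-26033768 minus (H2AC4), chr6:26157971-26158120 plus (H2BC5), chr6:26199366-26199515 plus (H2BC7), chr6:27809901-27810050 plus (H3C10), chr6:26204460-26204609 plus (H4C5), chr6:26027284-26027433 minus (H4C2), chr6:26234988-26235137 minus (H1-3), chr4:99950276-99950425 minus (H2AZ1) and chr1:226061681-226061830 plus (H3-3A). CCAAT was in the full windows of all 14 H2A, all 17 H2B and all 10 H3 genes of the replication-dependent class, in 8 of 9 H1 genes and in 3 of 11 H4 genes, against 34.6% of all 35116 windows in the table. Of the variants, 6 of 8 held it, H2AZ1 and H3-3A among them, although in the window of H3-3A it lies outside the stretch printed. TATAAA was in 38 of 61 replication-dependent windows, in 3 of 8 variant windows and in 11.5% of all windows. The octamer was almost restricted to the H2A genes (11 of 14) and the H2B genes (13 of 17), with 1 of 10 H3 genes, none of the 11 H4 or 9 H1 genes, 1 of 8 variants and 1.77% of all windows. Some neighbours lie closer together than the 250 bases searched before a start. On chromosome 6, for example, H2AC7 ends at base 26199293 and H2BC7 begins at base 26199516. Windows of such neighbours can cover the same bases, and a site may be counted for both genes. The counts of all 3 motifs are therefore not counts of separate promoters. H2AC4 holds it 118 bases before the start and H2BC7 at 111 bases. Genes with and without the octamer overlapped in their ratios on the replicate 4 array at 9 h. The medians were 1.27 for the 11 H2A genes with it and 1.23 for the 3 without, and 0.62 for the 13 H2B genes with it and 0.79 for the 4 without.

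The main observation on the replication-dependent class is a high ratio on few arrays. Its median on replicates 1, 2, 3 and 4 was 0.065, 0.16, -0.0019 and -0.015 at 0 h. At 3 h the corresponding medians were 0.36, -0.027, 0.15 and 0.083. At 6 h they were -0.0033, 0.15, -0.10 and 0.61, and at 9 h 0.030, 0.0040, 0.12 and 0.81. Replicate 1 was thus the high array at 3 h and replicate 4 at 6 and 9 h, while the other arrays ran from -0.027 to 0.15 at 3 h, -0.10 to 0.15 at 6 h and 0.0040 to 0.12 at 9 h. Some of these were shifted as a body too, since 54 of the 68 genes were above 0 on replicate 2 at 6 h and 6 on replicate 3. At 3 h 62, 31, 55 and 56 of the 68 genes were above 0 on replicates 1 to 4. At 0 h the counts were 45, 55, 33 and 32, so such a shift was also seen on replicate 2 there. The replicate 4 array gave the highest of the 4 values for 59 of the 68 genes at 6 h and for 62 at 9 h. Of all 17329 genes it did so for 4768 at 6 h and 5625 at 9 h. The median over all 17329 genes was within 0.014 of 0 on every array.

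**Figure D1:**
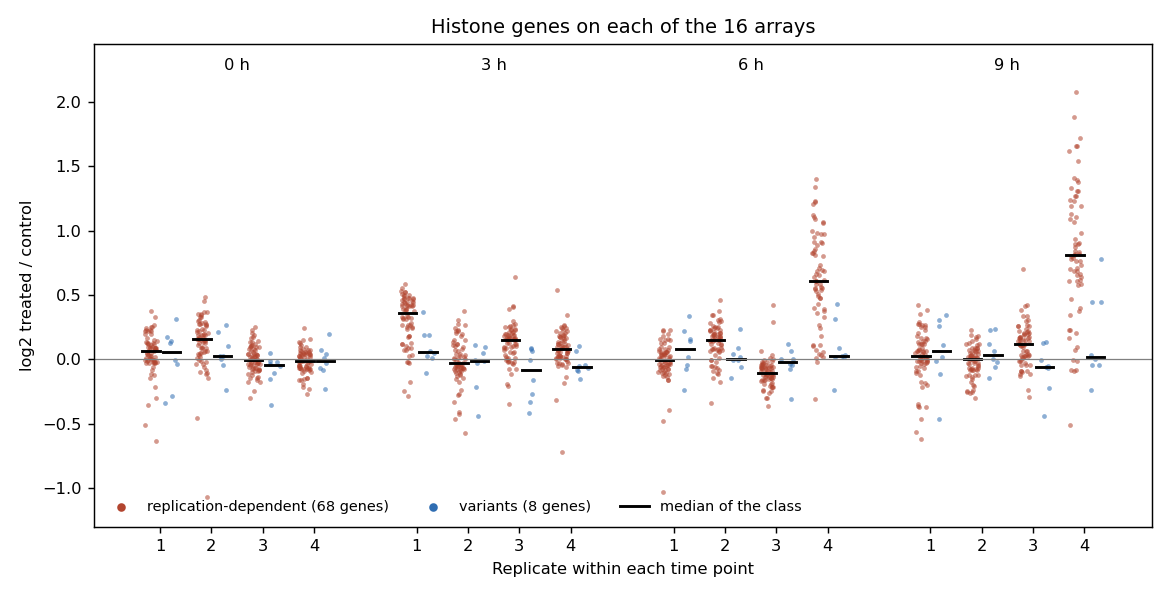
Ratio of treated over control (log2, vertical axis) of each histone gene on each of the 16 arrays, grouped by time point and replicate. Each point is a gene, red for the 68 replication-dependent genes and blue for the 8 variants, and black bars are class medians. The red points stand above 0 as a body on replicate 1 at 3 h (median 0.36) and on replicate 4 at 6 h (0.61) and 9 h (0.81).

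Counted at a fold of at least 1.3 on a single array, 33 of the 68 genes were higher in treated cells on replicate 1 at 3 h, against 1.08% of all genes on that array. On replicate 4 there were 51 of 68 at 6 h against 4.06% of all genes, and 54 of 68 at 9 h against 11.0%. The replicate 4 array at 9 h also had the widest ratios of all genes, with an SD over genes of 0.38, where the other 15 arrays had 0.13 to 0.24. It held 1903 genes higher and 1708 genes lower by that fold. Of all genes, 2.44% lay at or above the class median on that array, 1.26% on replicate 4 at 6 h and 1.24% on replicate 1 at 3 h. Replicate 3, with treated RNA in Cy3 like replicate 4, did not reach the high values, with class medians of -0.10 at 6 h and 0.12 at 9 h. At 9 h it was still above replicates 1 and 2 (0.030 and 0.0040), with 52 of 68 genes above 0. No other array at these times shares that orientation, and the part of the dye in the high values was not tested. Whether slide, culture or labelling differed for the high arrays was not tested. In bulk RNA, more cells of a type, such as cells in S phase, and more RNA per cell cannot be told apart.

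Averaged over the 4 arrays, the median of the replication-dependent genes took the values 0.051, 0.15, 0.17 and 0.26 at the successive time points, and 56, 58, 62 and 62 of the 68 gene means were above 0. Without replicate 4 the medians were 0.074, 0.16, 0.012 and 0.045, with 41 of 68 means above 0 at 6 h. Without replicate 1 the median at 3 h was 0.083. The variants had medians of 0.017, -0.00010, 0.040 and 0.095, and without replicate 4 of 0.030, 0.026, 0.028 and 0.041. The steps of the replication-dependent class at 6 and 9 h therefore rest on replicate 4.

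In limma's moderated test over all 16 arrays, no histone gene was called at any time point, where a call needs a fold of at least 1.3 and a Benjamini-Hochberg adjusted p under 0.05 over all genes. Of all genes, 0.0, 0.0 and 0.0% were called at the first 3 time points and 0.531% at 9 h (92 genes, 32 higher and 60 lower). The lowest adjusted p of a member was 0.81, 1.0, 0.51 and 0.13 in the same order. At an unadjusted p under 0.05 with the same fold, 8 of the 76 genes were higher at 9 h against 1.13% of all genes (195 genes), and none at 0 h (0.0115% of all genes), 3 h (0.0289%) or 6 h (0.0866%). Without replicates 1, 2, 3 and 4 in turn, 16, 14, 7 and 0 histone genes passed that test in either direction. In the same fits 727, 829, 650 and 171 of all 17329 genes passed it. The 8 that passed over all 16 arrays were the H2A genes H2AC1, H2AC4, H2AC7, H2AC11, H2AC21 and H2AC25 and the H3 genes H3C4 and H3C10. Robust regression, which weighs down arrays that stand apart, called 1 of the 76 histone genes at 9 h, H2AC1, and 1.04% of all genes (181 genes).

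Between time points no histone gene was called by limma in the contrasts 3 against 0 h, 6 against 0 h, 9 against 0 h, 6 against 3 h, 9 against 3 h and 9 against 6 h, which in part share arrays. The corresponding share of all genes called was 0.0, 0.0, 0.0, 0.0, 0.0 and 0.0%. At an unadjusted p under 0.05 and a fold of at least 1.3 in either direction no histone gene passed either, while 1.77, 0.127, 2.49, 1.43, 2.91 and 0.196% of all genes did. The lowest adjusted p of a member was that of MACROH2A2 between 9 and 3 h, at 0.45, with a difference of 0.32 ± 0.17 (SE). For none of the 76 genes did the 4 arrays at 9 h all lie above the 4 arrays at 0 h, against 2.18% of all genes.

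H2A and H2B form the dimers that dock on the central H3 and H4 tetramer, and the H2A genes were high together. On replicate 4 the median of the 15 genes was 0.92 at 6 h and 1.24 at 9 h, and all 15 exceeded a fold of 1.3 on both arrays. H2AC4, the member with the smallest p at 9 h, gave 0.38, 0.050, 0.22 and 1.62 on replicates 1 to 4. All 4 arrays were positive and one was far above the others, and the mean was 0.57 ± 0.20 (SE, n = 4), or 1.48-fold, with limma adjusted p = 0.13. H2AC21 gave 0.065, 0.072, 0.27 and 1.41 at 9 h, with a mean of 0.45 ± 0.20 and adjusted p = 0.24. H2AC25 gave 0.021, -0.013, 0.23 and 1.66, with a mean of 0.48 ± 0.22 and adjusted p = 0.26. In each of these genes replicates 1 to 3 stayed below 0.40 and replicate 4 exceeded 1.4.

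H2AC17, on chromosome 6, gave 0.014, 0.15, 0.20 and 1.31 at 9 h and -0.044, 0.30, -0.087 and 1.23 at 6 h. H2AC8 gave 0.068, -0.033, 0.21 and 0.82 at 9 h and -0.024, 0.15, -0.066 and 1.22 at 6 h, so that its replicate 4 value was lower at the later time. H2AC1, the gene called under robust regression, was the only H2A gene with a second array above 0.5 at 9 h, and its values were -0.0099, 0.086, 0.70 and 0.81, with a mean of 0.40 ± 0.14 and adjusted p = 0.14 in the ordinary fit. H2AC1 is known as a testis-specific H2A gene. At 3 h the H2A genes had medians of 0.41, -0.047, 0.20 and 0.15, and 10 of the 15 passed a fold of 1.3 on replicate 1.

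H2B, the partner of H2A, showed smaller ratios on replicate 4, with medians over 18 genes of 0.55 at 6 h and 0.74 at 9 h, and larger ones on replicate 1 at 3 h, with a median of 0.44 and 15 of 18 genes past a fold of 1.3. At 9 h replicates 1 to 3 had medians of 0.22, 0.013 and 0.027. H2BC5 was the highest H2B gene on replicate 4 at 9 h, with 0.12, -0.071, 0.11 and 0.99 on the 4 arrays and a mean of 0.29 ± 0.15 (adjusted p = 0.33). Every H2B gene was above 0 on replicate 4 at 6 and 9 h. The lowest 3 on that array at 9 h were H2BC18 (0.17), H2BC21 (0.21) and H2BC12 (0.23). H2BC18 had means of -0.11 ± 0.049, 0.063, -0.022 and 0.011 at 0, 3, 6 and 9 h, all 4 arrays being negative at 0 h. H2BC21 gave 0.28, 0.15, -0.072 and -0.72 at 3 h, the last being low against the other 3 arrays, and its 3 spots averaged -0.11 to 0.29 at 9 h.

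H3, which carries many of the regulatory marks on its tail, ranged widely on replicate 4. The median of the 12 genes was 0.61 at 6 h and 0.79 at 9 h. H3C10 had the highest mean of all members at 9 h, with 0.17, 0.0073, 0.41 and 1.72 and a mean of 0.58 ± 0.24 (1.49-fold, adjusted p = 0.21). At 6 h the same gene gave 0.035, 0.064, -0.11 and 1.34. H3C4 gave 0.050, -0.15, 0.42 and 1.38 at 9 h, with a mean of 0.42 ± 0.20 and adjusted p = 0.27. These are the H3 genes with the largest ratios, and in both replicate 3 was the second highest array. H3C2 gave 0.074, -0.12, 0.31 and 0.69 at 9 h (mean 0.24 ± 0.12), and H3C3 -0.035, -0.30, 0.066 and 0.69 (mean 0.10 ± 0.11). H3C13, on chromosome 1, did not share the pattern, with 0.085, -0.066, 0.14 and -0.0069 at 9 h.

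H4, the partner of H3, also ranged widely. On replicate 4 at 9 h its 13 genes ran from -0.092 to 1.54 around a median of 0.66, and 8 passed a fold of 1.3. H4C5 was the highest, with -0.092, -0.047, 0.17 and 1.54 on the 4 arrays and a mean of 0.39 ± 0.21 (adjusted p = 0.34). H4C2, H4C3 and H4C13 stayed near 0 on that array, at -0.092, -0.084 and -0.086. Their values at 6 h were 0.069, 0.054 and 0.039 on replicate 4. The means of H4C2 at 9 h and H4C13 at 9 h were -0.048 ± 0.075 and -0.053 ± 0.059. H4C3 gave -0.56, 0.23, -0.090 and -0.084 at 9 h and had negative means at every time point, from -0.21 at 0 h to -0.039 at 3 h, without a call. Most H4 genes encode the same protein and differ in mRNA sequence, and a spot may also read near-identical copies. A single value is therefore uncertain as to which gene it reports. The same limit applies to the other replication-dependent core families, since their genes are near-identical copies too. Counts of such genes may thus not be counts of separate readings, and cross-reading between copies was not tested.

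**Figure D2:**
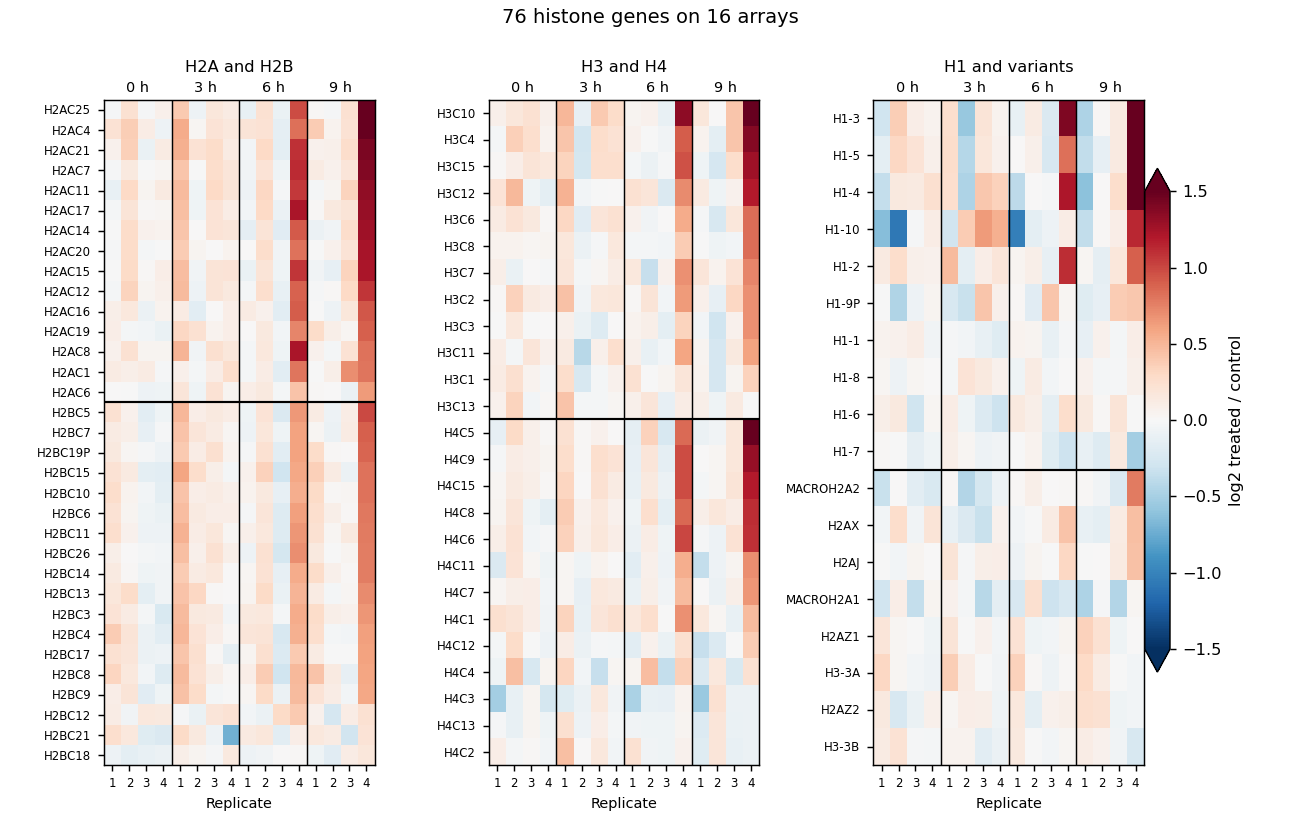
Log2 ratio of treated over control (colour, blue below 0 and red above, with values beyond the ends of the scale shown in the end colours) for all 76 histone genes in rows and the 16 arrays in columns, with time points separated by vertical lines. Genes are ordered within each family by their value on replicate 4 at 9 h. Red fills most of the replicate 4 columns at 6 and 9 h in the core families, while H4C2, H4C3 and H4C13 and most variants stay pale.

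The linker histones showed both the highest ratios and some of the lowest. The somatic genes H1-2, H1-3, H1-4 and H1-5 gave 0.90, 2.08, 1.66 and 1.88 on replicate 4 at 9 h and 1.11, 1.40, 1.21 and 0.83 at 6 h. At 9 h on replicate 1, H1-3, H1-4 and H1-5 were below 0, at -0.46, -0.62 and -0.37. H1-3 thus gave -0.46, 0.019, 0.14 and 2.08, the widest spread of any member, and its mean of 0.45 ± 0.32 had an adjusted p of 0.50. H1-5 had a mean of 0.38 ± 0.26 (adjusted p = 0.48), H1-4 of 0.33 ± 0.29 (adjusted p = 0.60) and H1-2 of 0.24 ± 0.17 (adjusted p = 0.51). H1-1, which belongs to the same cluster, was flat, with -0.12, 0.066, -0.024 and 0.100 at 9 h.

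The other linker genes gave mixed values. H1-10, a replication-independent gene on chromosome 3, gave -0.63, -1.07, -0.023 and 0.11 at 0 h, where no treatment was given by the methods, and -0.37, 0.014, 0.11 and 1.13 at 9 h. Its SD at 0 h, 0.55, was above that of the other linker genes at that time. H1-6 and H1-8, known from testis and oocyte, had means of 0.086 and 0.024 at 9 h. H1-7, known from testis, had a mean of -0.17 ± 0.080 (adjusted p = 0.28), and the pseudogene H1-9P gave -0.18, -0.13, 0.39 and 0.40. H1-10 and H1-9P thus passed a fold of 1.3 on replicate 4 at 9 h, where H1-6, H1-7 and H1-8 gave -0.012, -0.51 and 0.073. The median of these 5 genes on replicate 4 at 9 h was 0.073, where that of H1-1 to H1-5 was 1.66.

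Groups of neighbouring genes were compared as wholes, and position inside a group was not examined. The groups differ in their mix of families, which was not taken into account. The 33 genes of the larger chromosome 6 group, from H2AC1 to H4C8, had a median of 0.79 on replicate 4 at 9 h, the 5 genes from H2BC11 to H2AC12 of 1.07 and the 15 genes from H2BC13 to H2BC17 of 0.82. The 9 chromosome 1 genes from H2BC18 to H2AC21 had a median of 0.90, and the neighbours H2AC25 and H2BC26, also on chromosome 1, gave 1.66 and 0.77. Ranges overlapped widely, from -0.092 to 2.08 in the largest group and from -0.0069 to 1.41 in the 9 genes on chromosome 1. At 3 h on replicate 1 the same groups had medians of 0.34, 0.47, 0.41 and 0.33, so the high arrays were high in every cluster.

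The 8 variants can take the place of the ordinary histones in the nucleosome. H2AZ1 and H2AZ2, which encode the nearly identical forms of H2A.Z found at promoters, gave 0.35, 0.23, -0.068 and 0.0032, and 0.26, 0.23, -0.060 and -0.045, at 9 h. H3-3A and H3-3B, which encode the same H3.3 protein, gave 0.30, 0.12, -0.0066 and -0.044, and 0.11, 0.062, -0.054 and -0.24. In all 4 genes the arrays with treated RNA in Cy5, replicates 1 and 2, were positive, and of the arrays with treated RNA in Cy3 only that of H2AZ1 on replicate 4 was above 0. Their means were 0.13 ± 0.067, 0.096 ± 0.070, 0.093 ± 0.083 and -0.029 ± 0.059 for H2AZ1, H2AZ2, H3-3A and H3-3B. H3-3A showed the same order at 0 h, with 0.32, 0.029, -0.037 and -0.080.

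The other variants included the 3 that passed a fold of 1.3 on replicate 4 at 9 h. H2AX, whose phosphorylated form marks DNA breaks, gave -0.11, -0.15, 0.13 and 0.45 at 9 h, with 0.43 on replicate 4 at 6 h and a mean of 0.079 ± 0.098 at 9 h (adjusted p = 0.74). H2AJ gave -0.0096, 0.0030, 0.13 and 0.45 at 9 h, with a mean of 0.14 ± 0.070 (adjusted p = 0.29), and its 3 spots ranged from -0.055 to 0.40. MACROH2A2 gave 0.018, -0.055, -0.22 and 0.78, and its means passed from -0.18 at 0 h and -0.19 at 3 h to 0.034 and 0.13. MACROH2A1, which like MACROH2A2 carries a large domain beside the histone fold and is linked to silent chromatin, gave -0.47, -0.020, -0.44 and 0.033 at 9 h. Its means were negative throughout, -0.12, -0.13, -0.14 and -0.22 ± 0.11 at 0, 3, 6 and 9 h, with an adjusted p of 0.30 at 9 h. All 8 variants had an adjusted p of at least 0.29 at 9 h, and the difference between the classes was described and not tested.

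**Figure D3:**
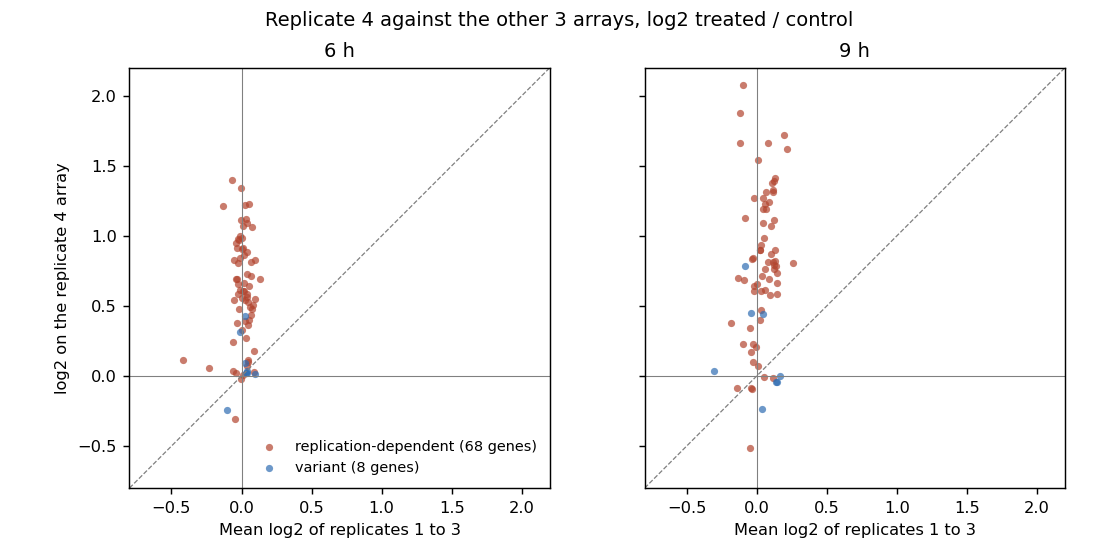
Log2 ratio on the replicate 4 array (vertical axis) against the mean of replicates 1 to 3 (horizontal axis) at 6 h and 9 h, red for the 68 replication-dependent genes and blue for the 8 variants, with the line of equality dashed. At 9 h most red points lie far above the line, up to 2.08 for H1-3, while their horizontal values stay near 0.

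Genes that serve the supply of histones were read beside the members in lists named for their roles. Of 23 measured S phase genes, 1 was called at 9 h, RRM2, the small subunit of ribonucleotide reductase, which gave 0.31, 0.11, 0.32 and 0.78. All 4 of its arrays were positive, and its mean was 0.38 ± 0.086, at the fold limit of 1.3, with limma adjusted p = 0.047. Leaving out any 1 replicate ended that call, with adjusted p = 0.21, 0.056, 0.17 and 0.16 for replicates 1 to 4. None of the 14 genes of histone transcription, 18 of histone mRNA processing, 21 chaperones and exchange factors or 5 other histone genes was called at any time point. The S phase list had medians of -0.0075, -0.086, 0.14 and 0.42 on replicates 1 to 4 at 9 h, and 0.095 on replicate 4 at 6 h, where the replication-dependent histone genes stood at 0.61. With means over the 4 arrays, 21 of its 23 genes were above 0 at 9 h, around a median of 0.11, where 8759 of all 17329 genes were above 0. Without replicate 4 there were 14 of 23, around a median of 0.049.

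Genes that act on histone promoters had a median of 0.57 on replicate 4 at 9 h, against 0.13, 0.036 and 0.11 on the others, and of 0.27 on replicate 4 at 6 h. NPAT, the coactivator that sits at the histone gene clusters, gave 0.0019, 0.13, -0.14 and 1.41 at 9 h. CCNE1, the cyclin whose kinase phosphorylates NPAT, gave 0.27, 0.084, 0.12 and 0.78 (mean 0.31 ± 0.10, adjusted p = 0.11), and E2F1, which switches on genes for S phase entry, 0.24, 0.081, 0.13 and 0.92 (mean 0.34 ± 0.11, adjusted p = 0.11). Of the subunits of the CCAAT-binding factor, NFYB gave 0.32, 0.0041, -0.0085 and 0.71 (adjusted p = 0.15), NFYA 0.18, 0.079, 0.18 and -0.12, and NFYC -0.038, -0.32, 0.11 and 0.38, so that they differed on replicate 4. HINFP, a factor of H4 promoters, gave -0.032, -0.094, 0.053 and 0.83. The part of this list in the histone ratios was not tested.

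The processing list did not share the high array, with medians of 0.050, -0.023, 0.061 and 0.030 on replicates 1 to 4 at 9 h, although single members did. SLBP, which binds the stem-loop and accompanies the mRNA through its life, gave 0.079, -0.043, 0.098 and 0.41 at 9 h. CASP8AP2, which recruits the cutting machinery to the U7 particle, gave 0.28, 0.10, 0.14 and 1.59, and CPSF3, the nuclease that cuts histone and other pre-mRNAs, 0.14, 0.020, -0.17 and -1.02. ERI1, the exonuclease that trims the stem-loop end, was positive on all 4 arrays at 9 h, with 0.31, 0.19, 0.13 and 0.58 and a mean of 0.30 ± 0.075 (adjusted p = 0.062). NCBP2, a cap-binding subunit, had a mean of 0.22 ± 0.062 (adjusted p = 0.074) and MIF4GD, which links SLBP to translation, of -0.24 ± 0.070 (adjusted p = 0.084).

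Chaperones had medians of -0.18, -0.047, -0.056 and 0.060 on the 4 arrays at 9 h. EP400, a motor that exchanges H2A.Z and H3.3, had a mean of -0.19 ± 0.049 (adjusted p = 0.065), SUPT16H, a subunit of the FACT chaperone of H2A and H2B, of -0.32 ± 0.094 (adjusted p = 0.089), and MIS18A, which prepares centromeres for CENPA, of -0.31 ± 0.081 (adjusted p = 0.068). CENPA, the H3 variant of the centromere, gave 0.18, 0.13, 0.28 and 0.22 at 9 h, with a mean of 0.20 ± 0.046 and adjusted p = 0.049, and was not called because its change was below a fold of 1.3. H2AB2 and H3-5, variants known mainly from testis, had means of 0.11 and 0.053 at 9 h. MCM6, of the replicative helicase, had a mean of 0.23 ± 0.076 (adjusted p = 0.11) and PRIM1, the primase, of -0.31 ± 0.083 (adjusted p = 0.073). Of the 23 S phase genes, 21 had means above 0 at 9 h and 2 below.

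**Figure D4:**
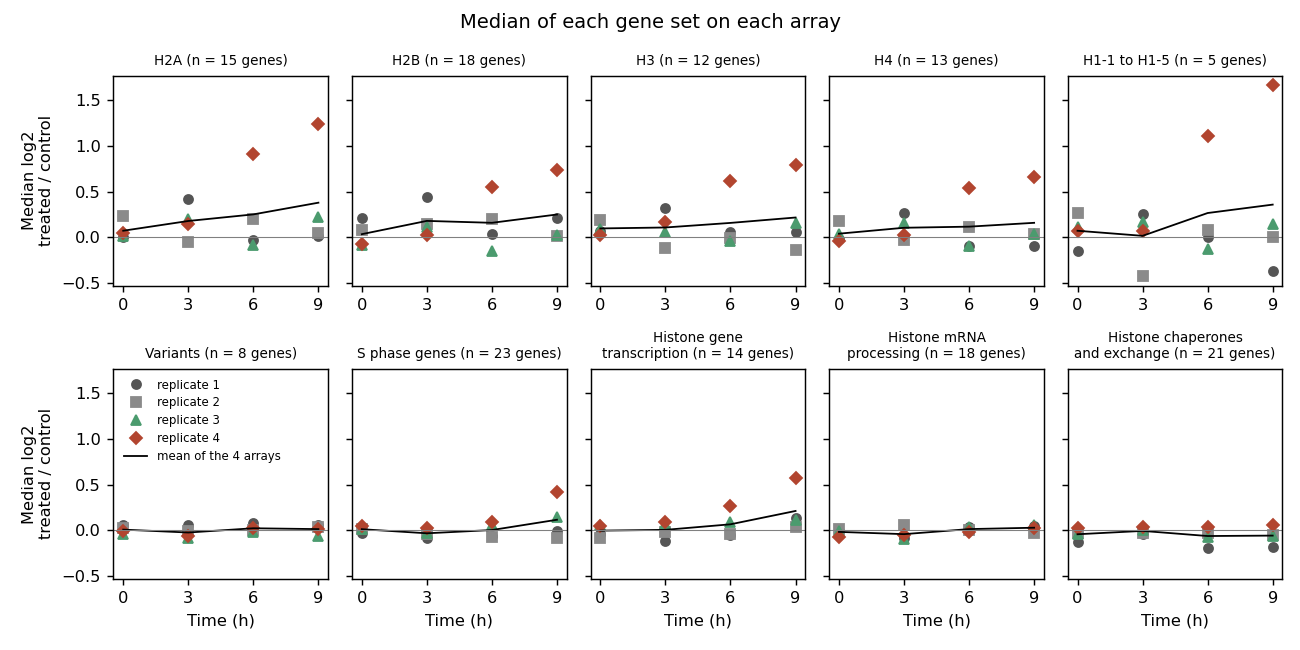
Median log2 ratio of treated over control (vertical axis) of gene sets against time in hours. The sets are the replication-dependent H2A, H2B, H3 and H4 genes, H1-1 to H1-5, the variants and 4 lists of related genes. The other 5 linker genes, with a median of 0.073 on replicate 4 at 9 h, are not shown. Markers give the 4 replicate arrays and a line their mean. Replicate 4 stands apart at 6 and 9 h in H2A (1.24 at 9 h), H2B, H3, H4 and H1-1 to H1-5. At 9 h it also stands apart in the S phase list (0.42) and the list of histone gene transcription (0.57). It does not in the variants, processing or chaperone lists.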

How the data were processed

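U937 RNA was measured on 16 two-colour arrays. The deposited values are log2 ratios of Cy5 over Cy3: the authors extracted spots with GenePix Pro and used limma for normexp background correction, loess within and Aquantile between arrays. Any further centring is not stated. Spot intensities and quality weights were not used here. As deposited, array medians lay between -0.0071 and 0.0033. Of 45220 spots, 4657 had no value, 11507 had no entry in the annotation table, 86 had more than one symbol, and 28970 spots of 17329 genes were kept. Symbols were updated by gene identifier through RefSeq (GRCh38.p14).

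The sign of replicates 3 and 4 was turned, spots of a gene were averaged, and limma 3.58.1 in R 4.3.3 was fitted with a coefficient per time point over all 16 arrays (residual degrees of freedom 12, prior 3.2). SE comes from this fit. P-values are two-sided and adjusted over 17329 genes per comparison. With 4 arrays per group the precision is limited, and nothing says which cultures belong together, so that p-values measure the spread between arrays. Data were simulated for the 9 h comparison over 17329 genes, with noise independent between arrays and at each gene's own spread. Of genes changed by 0.5, 1, 1.5 and 2 (log2), 86, 100, 100 and 100% were called, and 0.0117% of 17129 unchanged genes. The changed genes were drawn at random from all genes. These rates therefore do not apply to histone genes with a wide spread, such as H2AC4 at 9 h (mean 0.57, SE 0.20, not called).

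Members and lists were chosen with earlier results of these data known. Named by rule were all variants and linker genes, called genes, core members with the 3 highest or 3 lowest means at a time point, core members with one sign on all 4 arrays at 3, 6 and 9 h, and the 3 smallest p at 9 h per list. H2AC1, H2AC7, H2AC11, H2BC5, H2BC7, H2BC12, H3C13, H4C5, NPAT, HINFP, NFYA, NFYC, SLBP, CASP8AP2 and CPSF3 were chosen after their values were seen. The alternatives were a dye coefficient, replicate blocks, the spot with the highest F-statistic, each time point alone, robust regression, array weights, scaling, leaving out replicates and, for class medians, other memberships and single dye orientations. Figures used Python 3.11.15 and matplotlib 3.10.9.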

Additional observations from a re-analysis of the deposited data

Results flagged for a closer look

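In groups of 4 arrays, an array was set apart where its gap to the nearest of the others exceeded the critical share of their range in Dixon's test. This held for 14 of 196 sets tested, and in sets not chosen by their values chance alone gives about 1 in 20. That rate does not apply to the core genes here, since they were named for high or low means, which a single array can produce. On replicate 4 at 9 h it held for the median of the replication-dependent genes (0.81, others 0.0040 to 0.12), H2AC17 (1.31), H2AC21 (1.41) and H2AC25 (1.66). On replicate 4 at 6 h it held for H2AC8 (1.22), H3C10 (1.34), H3C4 (0.91), H4C13 (0.039), CCNE1 (0.71) and ERI1 (0.33). On replicate 2 it held for H2AC8 (0.23) and H3C3 (0.16) at 0 h, MIS18A (-0.22) at 3 h and MACROH2A1 (0.24, others -0.31 to -0.24) at 6 h.

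PRIM1 was above 0 on all 4 arrays at 0 h (mean 0.071) and below 0 on all 4 arrays at 3 h (mean -0.079) and at 9 h (mean -0.31). The differences from 0 h were -0.15 and -0.38, and in the limma contrasts with 0 h neither was called (adjusted p = 0.75 and 0.48).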

How the results depend on the processing

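Of 114 alternatives for the counts of called histone genes, 113 gave 0, the leave-one-out fits among them (0 to 0). Robust regression gave 1 at 9 h, H2AC1 (log2 0.40, adjusted p = 0.023). The 92 genes called in all at 9 h became 325 with a dye coefficient, 0 with each time point on its own arrays, 181 with robust regression, 7 with array weights, 59 with centred and scaled arrays, and 0 to 32 when a replicate was left out (0, 17, 0 and 32 without replicates 1, 2, 3 and 4). With the replicate number as a block, 419 genes and no histone gene were called. Deviations of same-numbered arrays correlated at 0.037 to 0.67 over 24 pairs, and at -0.42 to 0.50 with the dye orientation removed, highest for replicate 4 between 6 and 9 h in the latter. As not every pair exceeded 0.1, the numbers were not taken to pair the arrays, and whether replicate 4 came from 1 culture is not given. Of 96 alternative class medians, 89 moved by less than 1 SD over arrays. For the replication-dependent genes replicate 4 itself sets that SD (0.32 at 6 h and 0.38 at 9 h), so that it could not register the fall without replicate 4 from 0.17 to 0.012 and from 0.26 to 0.045. The others were variant medians: at 0 h 0.069 with the highest-F spot and -0.031 with treated RNA in Cy3 only, at 3 h -0.076 in Cy3 only, at 9 h 0.042 in Cy5 only and -0.029 in Cy3 only, and leave-one-out ranges of -0.0027 to 0.076 at 6 h and 0.041 to 0.14 at 9 h. The median of the replication-dependent genes at 9 h was 0.0058 with treated RNA in Cy5 only and 0.45 in Cy3 only, and at 6 h 0.075 and 0.25. Among values of single named genes, 8 of 1332 lost a call, all of RRM2, and 60 changed sign without being called. The cause of these shifts was not tested. Ratios without intensities give no signal over background, so dim spots could not be set apart.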
